A study of Mus musculus with 14 samples.

Results

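Colonies that still looked undifferentiated after 7 days in retinoic acid were set directly against a whole culture that had been in retinoic acid for 48 h. The comparison takes 4 of the 14 arrays of the series, 2 for each group, and every probe that is not a control (42006 probes, of which 31053 passed the filter on dim probes). The arrays were chosen by their titles, not by any measured value.

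The day 7 colonies came from the mouse embryonic stem (ES) cell line labelled ES MC1, of strain 129SvEv-Tac, given 50 nM retinoic acid. Their titles also give LIF (Lif+), and colonies were picked by hand on day 7. The 48 h cultures came from the line labelled MC1-ZE3 (MC1-ZE-3 in the titles), of strain 129/Sv, kept for 24 h in standard medium with LIF and then for 48 h in medium with 50 nM all-trans retinoic acid. Neither group of the comparison was untreated. Their levels are given beside 5 other groups of 2 arrays each: MC1-ZE3 cells in standard culture on day 3 (standard day 3), the same line after 7 days of retinoic acid and 10 passages without it (passage 10), colonies of the line MC1-ZE16 picked on day 4 of 50 nM retinoic acid (day 4 colonies), untreated MC1-ZE-3 cells (control day 3) and MC1-ZE-3 cells given the PI3K inhibitor LY294002 for 48 h. The 2 arrays of a group carry the same source name and no label says that they came from separate cultures, so every p-value below measures only the spread between such arrays, which may be technical. The labels disagree about the material: the design text has the day 7 cells picked as colonies, but their extraction protocol speaks of a well, and the protocol of the 48 h samples speaks of pooled colonies. Retinoic acid exposure, day, picking, line and slide all differ between the groups, and they cannot be told apart here. No untreated culture of the line ES MC1 is among the samples analysed here, and standard day 3, against which the day 7 colonies are set below, is of another line and on other slides and scan days.

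Retinoic acid enters the nucleus and binds retinoic acid receptors, which sit on DNA with RXR partners and switch on genes that carry their binding sites. The 3′ genes of the Hox clusters, Hoxb2 among them, are among the early targets and give cells of the hindbrain their position along the body axis. LIF, a cytokine acting through STAT3, holds mouse ES cells undifferentiated, so a culture with LIF and retinoic acid receives opposing signals.

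A level below is the log2 ratio of sample RNA (Cy3) over a reference RNA (Cy5), so that 0 means as bright as the reference and 1 means 2-fold brighter. The reference was a pool of 11 cell lines mixed 2:1 with ES cell RNA. A difference is the level in day 7 colonies minus that at 48 h, and a probe was called at an adjusted p under 0.05 in limma fitted to all 14 arrays. No file names the gene a probe reads. Genes are therefore named only where a probe's sequence matched a RefSeq window around a transcription start (build GRCm38.p6) at 1 place and fell inside 1 annotated gene: 302 probes in 294 genes, of which 207 probes in 199 genes were tested. Of 599 symbols in lists of pluripotency, germ layer, retinoic acid, signalling and cell type genes, 3 were placed in this way (Hoxb2, Acta2 and Lmo2), so the ES cell label could not be checked against its defining markers.

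Among the probes that differed most, these have no gene here, and their sequences are their only identity. They are shown 5′ to 3′ as designed on the array, with the polyadenylation signal motif AATAAA in capitals where the probe holds it. The first pair was higher in day 7 colonies and the last lower.
Z00024925-1: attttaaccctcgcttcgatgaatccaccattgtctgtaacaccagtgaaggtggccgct
Z00027818-1: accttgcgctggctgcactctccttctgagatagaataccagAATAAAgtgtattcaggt
Z00033292-1: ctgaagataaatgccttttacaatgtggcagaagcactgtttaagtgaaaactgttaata

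The Hoxb2 probe carries the result on a known retinoic acid target, and capitals mark the bases that matched the genome window, which is all of them. It lies at chr11:96353540-96353599 on the plus strand of GRCm38.p6, inside the annotated span of Hoxb2 (the strand of the gene is not in the table used).
Hoxb2 probe: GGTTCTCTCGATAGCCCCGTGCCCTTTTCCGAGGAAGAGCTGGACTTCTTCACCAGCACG

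Hoxb2, a homeodomain transcription factor of the hindbrain, was lower in day 7 colonies than at 48 h while standing above the untreated MC1-ZE3 cultures in both. Its levels were 1.07 and 0.56 on the day 7 arrays and 2.62 and 2.66 on the 48 h arrays. The 2 groups do not overlap. The difference was -1.83 on the log2 scale (SE 0.12, 95% interval -2.08 to -1.57, limma adjusted p = 8.73e-08), a 3.54-fold lower level. That SE is pooled over all 7 groups, and the day 7 arrays lay further apart for this probe than those of any other group. With only the 4 compared arrays in the fit the limma adjusted p was 0.000301. Untreated cells stood far below both groups, at -1.47 and -1.46 in control day 3 and at -1.53 and -1.48 in standard day 3. Against the control of its own slide the 48 h culture was higher by 4.11 (limma adjusted p = 3.31e-10), and against standard day 3 the day 7 colonies were higher by 2.32 (limma adjusted p = 5.38e-09). Day 4 colonies lay lower than day 7 colonies, at -0.25 and -0.33, a gap of 1.1 (limma adjusted p = 5.64e-06). At passage 10, with retinoic acid long withdrawn, the level was -1.34 and -1.45, near the untreated values, and with LY294002 it was -1.31 and -1.24. The difference of the colonies from standard day 3 was smaller than that of the 48 h culture from control day 3 by 1.78 (SE 0.17, limma adjusted p = 4.11e-06), in a fit where that difference of changes is itself the contrast. From the Cy3 channel alone the difference between colonies and 48 h was -2.51 (limma adjusted p = 3.27e-08).

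The largest rise among probes without a gene, Z00024925-1, stood above the reference on the day 7 arrays alone. It read 1.71 and 2.06 there and -2.67 and -2.49 at 48 h. No other array of the series read above -2.08. The difference was 4.47 (SE 0.12, 95% interval 4.21 to 4.72, limma adjusted p = 8.12e-11), or 22.1-fold. Day 4 colonies, at -2.58 and -2.57, differed from the 48 h culture by 0.00 (limma adjusted p = 0.98).

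Z00027818-1 read 1.22 and 1.06 in day 7 colonies and -2.63 and -2.60 at 48 h. The difference was 3.76 (SE 0.11, limma adjusted p = 1.21e-10), or 13.5-fold. Here the day 4 colonies lay between, at -0.72 and -0.62, higher than the 48 h culture by 1.95 (limma adjusted p = 1.21e-08) and lower than the day 7 colonies by 1.81 (limma adjusted p = 3.14e-08). Standard, passage 10, control and LY294002 arrays read from -3.12 to -2.34.

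The largest fall, Z00033292-1, read -3.10 and -3.44 in day 7 colonies and 2.07 on both 48 h arrays. The difference was -5.34 (SE 0.09, 95% interval -5.54 to -5.14, limma adjusted p = 3.60e-12), or 40.5-fold. It was low in both sets of picked colonies, since day 4 colonies read -2.54 and -2.43. The 4 remaining groups read from -0.21 to 1.86, and the control cells of the 48 h culture, at 1.36 and 1.35, stood above the standard cells at 0.28 and 0.27. Each of these probes was well above background on all 4 arrays, so none of these folds is a bound.

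**Figure D1:**
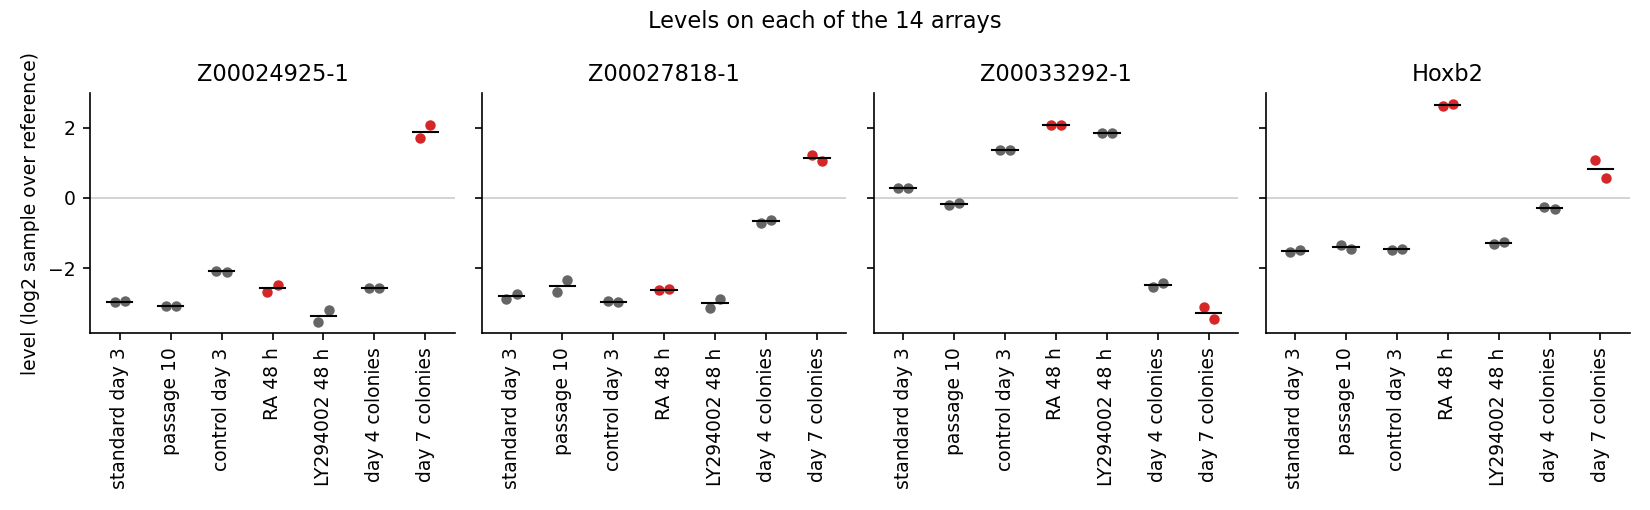
Level (log2 sample over reference) of the 3 probes without a gene and of the Hoxb2 probe on each of the 14 arrays, by group; each point is 1 array, the line is the mean of 2, and red marks the compared groups. Z00024925-1 is at 1.71 and 2.06 in day 7 colonies and at or below -2.08 elsewhere, while Hoxb2 is at 2.62 and 2.66 at 48 h, 1.07 and 0.56 in day 7 colonies and below 0 in the other groups.

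Over the whole array, 15174 of 31053 probes were called (48.9%), 6586 of them higher (21.2%) and 8588 lower (27.7%) in day 7 colonies. At 2-fold or more, 564 were higher (1.82%) and 1236 lower (3.98%). At 4-fold or more the counts were 85 and 110, and at 8-fold or more 11 and 20. The middle of the distribution was narrow: the lower and upper quartiles of the difference were -0.26 and 0.18 and the median was -0.02. The balance of small differences depended on scaling. Lower probes made up 56.6% of all calls after loess, 57.3% with a background offset of 16, 49.6% from the scanner software's processed signals, 47.6% from the Cy3 channel alone and 44.0% after plain median centring. At 2-fold or more, lower probes outnumbered higher ones under each of these 5 scalings, by 833 to 755 after median centring and by 2317 to 1439 from the processed signals.

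**Figure D2:**
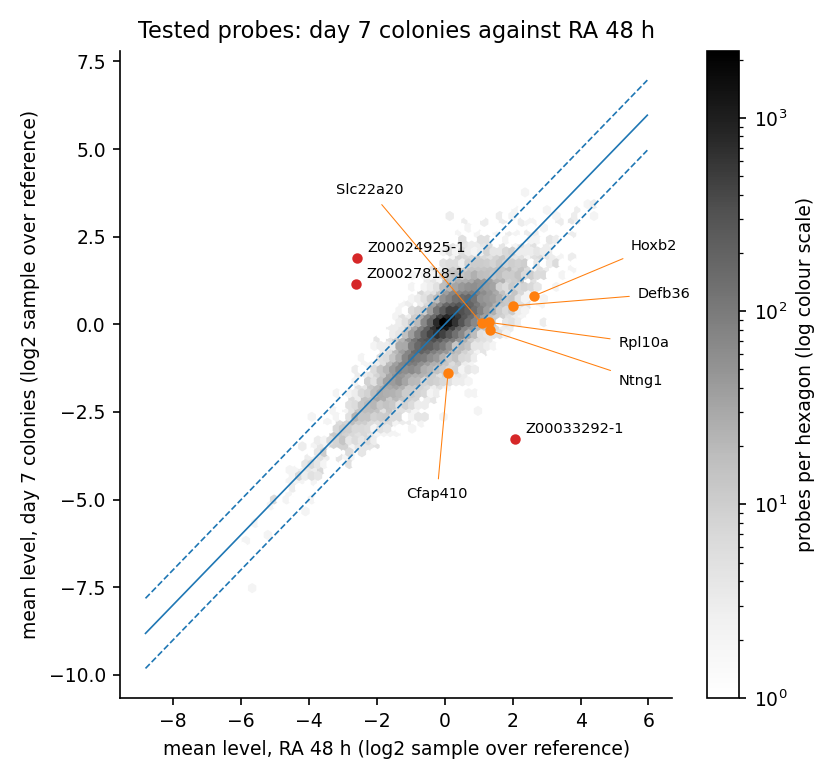
Mean level of the 31053 tested probes at RA 48 h (horizontal) and in day 7 colonies (vertical), both as log2 sample over reference; grey hexagons count probes on a log colour scale, the solid line marks equal levels and the dashed lines 2-fold. Red points are the 3 probes without a gene and orange points the 6 placed genes at least 2-fold lower; most probes lie between the dashed lines.

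The probes that were 2-fold higher or lower were then followed in the 5 groups that played no part in choosing them. The 564 higher probes had a median level of 1.32 in day 7 colonies and -0.02 at 48 h, which is how they were chosen. In the other groups their median was -0.07 (standard day 3), -0.05 (passage 10), -0.03 (control day 3), 0.08 (day 4 colonies) and -0.29 (LY294002), against medians of all tested probes between -0.01 and 0.00. For 457 of them the day 7 colonies had the highest mean of the 7 groups, as for 4756 of all 31053 tested probes. The way these probes were chosen favours that rank, so nothing is read from it. Among the 5 other groups the median was highest in day 4 colonies (0.08), which are of another line, MC1-ZE16. The choice also favours day 7 colonies over every other group, so nothing further is read from these medians.

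The 1236 lower probes had a median of -0.52 in day 7 colonies and 0.86 at 48 h. Their median was 0.46 in control day 3, the untreated culture of the same line, slide and scan day as the 48 h arrays, and -0.04 in standard day 3, -0.09 in passage 10, -0.20 in day 4 colonies and -0.23 with LY294002. The 48 h culture was the highest group for 809 of them and the day 7 colonies the lowest for 413. Among all 31053 tested probes these counts were 5210 and 4293. Here too the choice of the probes favours those ranks.

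**Figure D3:**
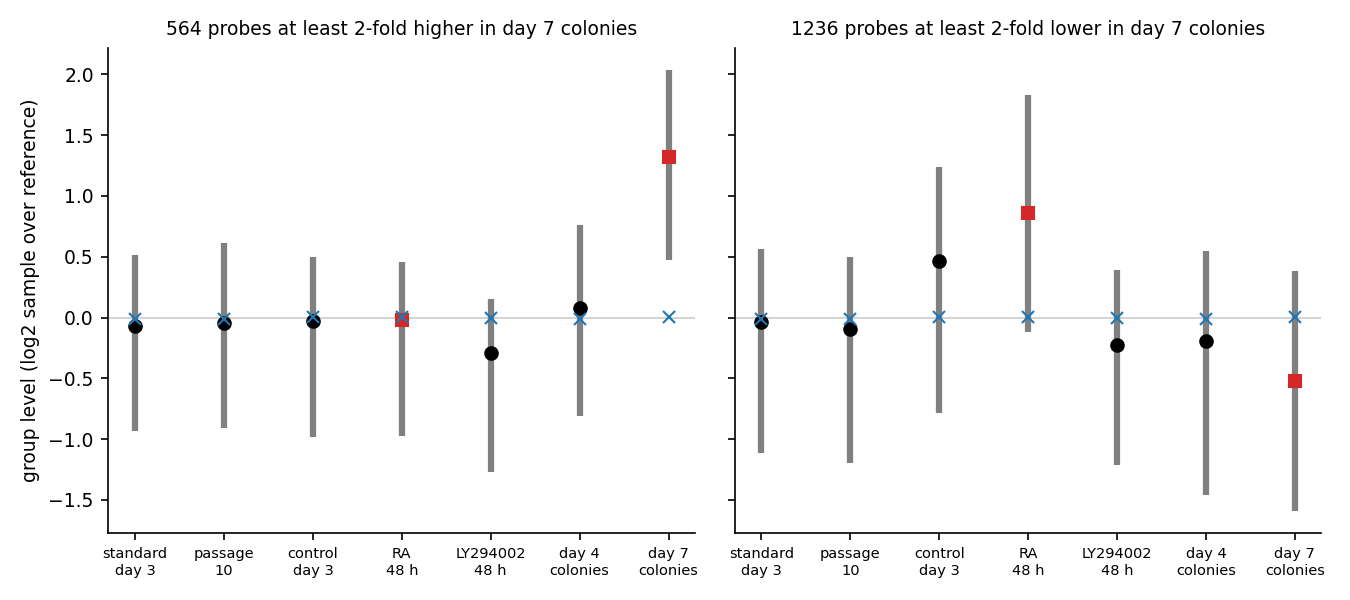
Median level (log2 sample over reference) in each of the 7 groups of the 564 probes at least 2-fold higher (left) and the 1236 at least 2-fold lower (right) in day 7 colonies; grey bars span the quartiles over probes, red squares mark the groups that chose the probes, black circles the others and blue crosses all tested probes. The left set is highest in day 7 colonies (1.32) and lowest with LY294002 (-0.29). Among the groups that did not choose it, the right set is highest in control day 3 (0.46) and lowest with LY294002 (-0.23).

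The 2 untreated cultures offered a comparison that shares no array with the one described. Probes at least 2-fold higher in control day 3 than in standard day 3 numbered 1163; 811 of these (69.7%) were lower in day 7 colonies than at 48 h and 111 (9.54%) higher, with a median difference of -0.61, beside 27.7% and 21.2% of all probes. Probes lower in control day 3 numbered 446, and 241 of them (54.0%) were higher in the colonies and 70 (15.7%) lower, with a median of 0.28. The direction of both medians was the same under the 5 scalings, from -0.65 to -0.45 and from 0.23 to 0.44. Across the 31053 probes the difference between colonies and 48 h correlated with standard minus control at r = 0.31; probes are not independent replicates, and control day 3 and the 48 h culture share a slide, a scan day and a line. The contrast of the colonies against standard day 3 minus the 48 h culture against control day 3 subtracts standard minus control from the difference of each probe. It called 13298 probes (42.8%), 1147 of them at least 2-fold higher (3.69%) and 1113 lower (3.58%). These need not be the probes called in the direct comparison, and how many of those kept their call was not counted.

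The probes that moved in day 4 colonies against standard day 3, also free of shared arrays, split differently. Of 1059 that were at least 2-fold higher there, 329 were higher (31.1%) and 447 lower (42.2%) in day 7 colonies than at 48 h. Of all tested probes 21.2% were higher and 27.7% lower, so both shares of this set were larger. Its median changed sign with scaling, from -0.13 to 0.04. Of 954 that were lower there, 207 were higher (21.7%, near the share of all probes) and 490 lower (51.4%). Their median of -0.24 stayed below 0 under the 5 scalings (-0.28 to -0.12).

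**Figure D4:**
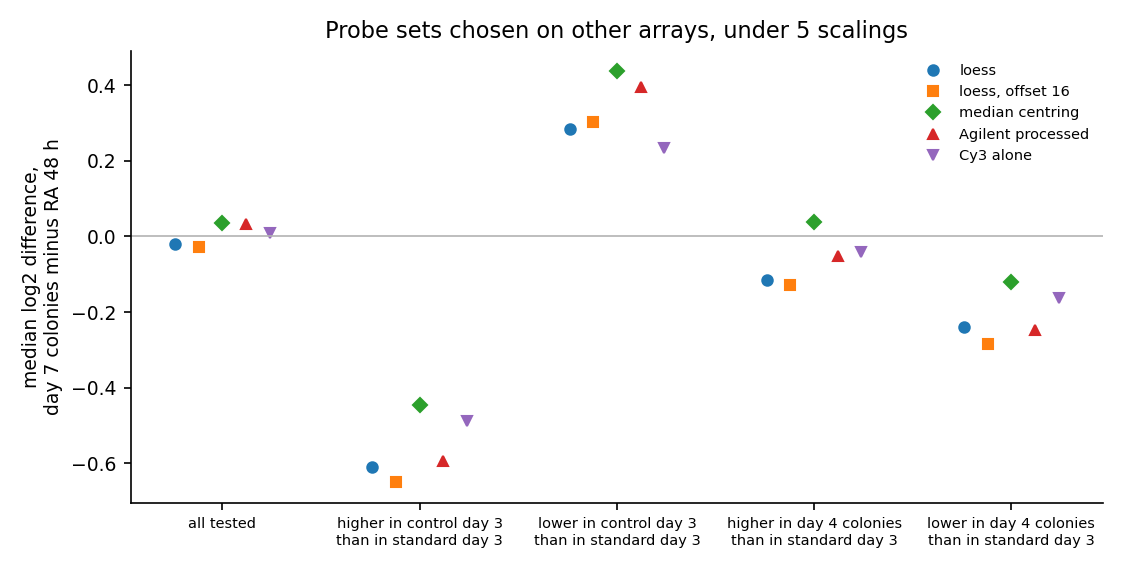
Median log2 difference (day 7 colonies minus RA 48 h) of all tested probes and of 4 probe sets chosen at 2-fold or more on arrays outside the comparison; each marker is 1 scaling. The set higher in control day 3 lies between -0.65 and -0.45 and the set lower in control day 3 between 0.23 and 0.44.

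Of the 207 tested probes placed in a gene, 32 were called higher and 49 lower (39.1% called, beside 48.9% of all probes), with a median of -0.01. Those at least 2-fold lower numbered 6, and none was called 2-fold higher after loess with the background offset of 50. Besides Hoxb2 these were Ntng1, Cfap410, Defb36, Rpl10a and Slc22a20.

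Ntng1 encodes netrin-G1, a membrane-anchored axon guidance protein. Its probe read -0.33 and -0.02 in day 7 colonies and 1.02 and 1.61 at 48 h. The groups do not overlap, and the difference was -1.49 (SE 0.19, limma adjusted p = 3.63e-05). Control day 3 read 0.97 and 1.24 and standard day 3 read -0.30 and 0.13, and neither the 48 h culture against control day 3 (0.21, limma adjusted p = 0.428) nor the colonies against standard day 3 (-0.09, limma adjusted p = 0.736) passed the threshold. The size of the fall moved with the scaling. It was -1.18 from Cy3 alone (limma adjusted p = 0.00213) and -2.54 from the processed signals (limma adjusted p = 0.00196).

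Defb36, a member of the beta-defensin family of antimicrobial peptides, read 0.65 and 0.40 in day 7 colonies and 2.08 and 1.92 at 48 h. The difference was -1.47 (SE 0.10, limma adjusted p = 7.61e-08). Its control read 1.46 and 1.25 and standard day 3 read 0.01 and -0.06, so the colonies stood above standard day 3 by 0.55 (limma adjusted p = 0.000302) and the 48 h culture above control day 3 by 0.64 (limma adjusted p = 0.000159). The gene Gm31618 is annotated on the opposite strand at the probe.

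Rpl10a, a protein of the large ribosomal subunit, read 0.25 and -0.14 in day 7 colonies and 1.38 and 1.24 at 48 h. The difference was -1.25 (SE 0.18, limma adjusted p = 7.28e-05), and control day 3 read 1.00 and 1.30. Slc22a20, a transporter of the organic anion family, read -0.07 and 0.12 against 1.03 and 1.14. The difference was -1.06 (SE 0.09; limma, adjusted p = 1.10e-06), or -1.66 from the processed signals (limma adjusted p = 0.000221). It was called but under 2-fold after median centring (-0.93) and from Cy3 alone (-0.79). Control day 3 stood higher still, at 1.77 and 1.73.

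Cfap410, a protein of cilia, is the least secure of the 6. Its day 7 arrays read -0.95 and -1.84 and its 48 h arrays 0.23 and -0.05, and the standard day 3 arrays lay as far apart as -0.04 and -1.68. The difference was -1.49 (SE 0.42, limma adjusted p = 0.00996). Without the first 48 h array it was -1.35 (limma adjusted p = 0.0648), without the second day 7 array -1.04 (limma adjusted p = 0.106) and after median centring -1.13 (limma adjusted p = 0.0566), while from Cy3 alone it was -2.15 (limma adjusted p = 0.000276).

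The genes highest in the colonies, named after their values were seen, stayed under 2-fold after loess with the offset of 50, but not under every scaling: Hdac10 reached 1.19 after median centring and 1.07 from the processed signals, Zmynd10 1.65 from the processed signals and 1.05 with an offset of 16, and Mrps21 and Gm15511 1.1 and 1.05 after median centring. Hdac10, a deacetylase that acts on polyamines, read -0.95 and -1.11 in day 7 colonies and -2.01 and -1.98 at 48 h, higher by 0.97 (SE 0.08, limma adjusted p = 1.17e-06). The untreated MC1-ZE3 cultures stood apart in the same way: standard day 3 read -1.05 and -1.25 and control day 3 read -2.12 and -2.09. The difference of changes was 0.01 (limma adjusted p = 0.939).

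Zmynd10, needed to assemble the dynein arms of motile cilia, read 0.20 on both day 7 arrays and -0.54 and -0.59 at 48 h, higher by 0.76 (SE 0.08, limma adjusted p = 3.80e-06), or by 1.65 from the processed signals. The 48 h culture lay below its control by 1.14 (limma adjusted p = 1.79e-07), while the colonies lay above standard day 3 by 0.37 (limma adjusted p = 0.00117). Plet1, a surface protein of placental and epithelial progenitors, moved in the same way. It read 1.89 and 2.20 in day 7 colonies and 1.36 and 1.46 at 48 h, higher by 0.63 (SE 0.10, limma adjusted p = 0.000147), with the 48 h culture below its control by 0.63 and the colonies above standard day 3 by 1.00. The difference of changes was 1.51 for Zmynd10 (limma adjusted p = 3.81e-07) and 1.63 for Plet1 (limma adjusted p = 1.53e-06).

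Mrps21, a protein of the mitochondrial ribosome, was higher by 0.87 (SE 0.16, limma adjusted p = 0.000577), with day 7 arrays that differed from each other at 0.66 and -0.03 and 48 h arrays at -0.59 and -0.53. Renbp, which binds renin and interconverts amino sugars, read 0.46 and 0.48 against -0.09 and -0.18, higher by 0.61 (SE 0.06, limma adjusted p = 4.97e-06). Trmt112, a partner of several methyltransferases, was higher by 0.52 (SE 0.07, limma adjusted p = 3.97e-05). Gm15511, a long non-coding RNA gene inside the opposite-strand gene Rora, was placed by 29 bases only and was higher by 0.90 (SE 0.14, limma adjusted p = 0.000196), although the colonies lay below standard day 3 by -0.80 (limma adjusted p = 0.000364). Its call was lost from the processed signals (0.82, limma adjusted p = 0.145) and from Cy3 alone, where the sign turned (-0.06, limma adjusted p = 0.707). Hdac10, Zmynd10, Plet1, Mrps21, Renbp and Trmt112 were called higher under each of the 5 scalings.

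Fgf15, a secreted growth factor, read -0.36 and -0.62 in day 7 colonies and -0.08 and -0.22 at 48 h. It was lower by a small step (-0.34, SE 0.09, limma adjusted p = 0.00887), a call that was lost after median centring (-0.24, limma adjusted p = 0.19) and from the processed signals (-0.58, limma adjusted p = 0.0553). The colonies differed from standard day 3 by -1.52 (limma adjusted p = 2.77e-08) and the 48 h culture from control day 3 by -0.72 (limma adjusted p = 5.35e-05). The listed markers Acta2 (smooth muscle actin) and Lmo2 (a blood and endothelial transcription cofactor) gave differences of 0.09 (95% interval -0.10 to 0.27, limma adjusted p = 0.437) and 0.01 (95% interval -0.18 to 0.19, limma adjusted p = 0.962). The Acta2 probe was not well above background on any of the 4 arrays, and Lmo2 stood near -2.07 in both groups.

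**Figure D5:**
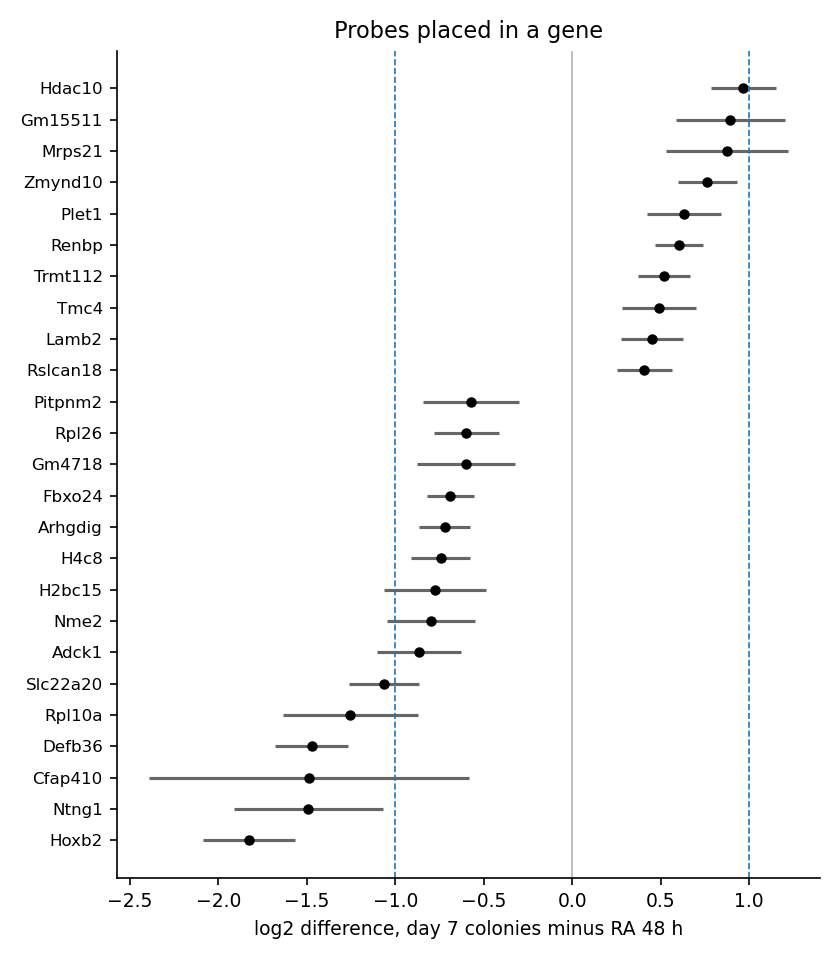
Log2 difference (day 7 colonies minus RA 48 h) of called probes placed in a gene, the 15 lowest and 10 highest; points are the fitted differences, bars their 95% intervals and dashed lines 2-fold. Hoxb2 lies lowest at -1.83 and Hdac10 highest at 0.97, and Cfap410 has the widest interval (-2.39 to -0.59).

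Placed probes were also grouped by family after their values were seen, and their counts stand beside 48.9% called and 27.7% lower of all probes. Of 5 probes in ribosomal protein genes and the related Rps27l, 4 were lower and none higher, with a median of -0.48. They were Rpl10a, Rpl26 (-0.60) and a pair in Rpl38 (-0.48 and -0.40), and Rps27l, at 0.24, was not called. That count was 4 of 5 after loess (with either offset) and from the processed signals but 1 of 5 from Cy3 alone and after median centring, where 1 was higher, so it rests on the scaling. Of 7 probes in histone genes, 4 were lower and none higher, with a median of -0.45: H2bc15 (-0.77), H4c8 (-0.74), H2ac18 (-0.54) and H4c3 (-0.45). The share of histone probes called, 57.1%, is near that of all probes, and nothing is read from it. Between 2 and 4 of the 7 were lower under the 5 scalings, and from Cy3 alone 1 was higher. Of 4 probes in genes of respiratory complex I, 2 were lower, with a median of -0.18, and after median centring 0 were called and the median was 0.02. Of 5 probes in olfactory receptor genes 1 was lower, with a median of 0.00. Ribosomal protein and histone genes have near-identical copies, so a probe may read more than the gene it was placed in.

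A second H4c8 probe shows how far neighbours can part. It overlaps the first by 27 bases and read a difference of 0.07 (limma adjusted p = 0.47) where the first fell by 0.74 (limma adjusted p = 4.64e-06). Their gap was 0.81. Among 715 tested pairs that share 20 to 59 bases the median gap between their differences was 0.06, 3 pairs (0.42%), this one included, had a gap of that size or more and 2 pairs differed by over 1, and among 23 pairs of identical sequence the median gap was 0.05 and none differed by over 1. The pair in Rpl38, which shares 48 bases, differed by less than 0.1.

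The base composition of the 2-fold probes was set beside that of all tested probes. The median GC content was 43.3% for higher and for lower probes and 45.0% for all tested probes, and the upper quartile was 46.7% for both sets and 51.7% for all. The motif AATAAA, searched as those letters, was in 7.98% of the higher probes, 11.4% of the lower and 7.38% of all tested; its reverse complement TTTATT was in 2.66%, 2.75% and 3.07%. Of probes with 60% GC or more, 0.283% were 2-fold higher and 3.51% lower, beside 1.82% and 3.98% of all tested probes.

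Detection differed between the groups. The Cy3 signal was well above background for 66.1% and 66.3% of probes on the day 7 arrays and for 68.6% and 75.1% on the 48 h arrays. The untreated control day 3 arrays, on the slide of the 48 h arrays, were at 73.1% and 74.8%. A probe was well above background on both 48 h arrays and neither day 7 array 1454 times, and the reverse 148 times. Of the 1454, 552 were called lower, 35 of them at least 2-fold, and 18 higher. Of the 148, 92 were called higher, 15 of them at least 2-fold, and 2 lower. Choosing probes by detection favours those directions. Of the 2-fold calls, 537 of 564 higher and 1181 of 1236 lower were well above background on all 4 arrays, as were 26363 of all 31053 tested probes. The 2-fold probes were also brighter. Their median log2 intensity over both channels was 9.32 (higher) and 9.33 (lower), beside 8.63 for all tested probes. The replicates correlated at r = 0.972 in day 7 colonies and 0.993 at 48 h, and the median gap between replicates of a probe was 0.12 and 0.06, larger in the day 7 group.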

How the data were processed

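The 14 arrays were 2-colour Agilent arrays with sample RNA in Cy3 and reference RNA in Cy5 on each, per the labels, so a dye effect common to all arrays cancels between groups. The deposited intensity values (mean signal and median background) were written, per the file headers, by Feature Extraction software of Agilent (version 9.5.1.1) and are not normalized. The same deposited files hold processed intensities, already background-subtracted and dye-normalized, and log10 ratios of Cy5 over Cy3. The authors' deposited value table holds log10 values for 25030 probes; probe by probe it followed minus the log10 ratio (r of 0.999 to 1.00 over 14654 probes above 1.5 on every array), with column medians of 2.24 to 2.32. Its direction is sample over reference, and the constant added to each probe is unknown. How it was made is not given in the sources used here.

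Background was corrected with normexp (offset 50) and log2 ratios were normalized by loess within arrays (limma 3.58.1, R 4.3.3, statmod 1.5.0). Control spots had no weight, outlier-flagged spots were left out and repeated probes averaged. Tested probes were well above background in Cy3 on both arrays of at least 1 group. All 7 groups entered 1 limma fit, with Benjamini-Hochberg adjustment. The code was tested on simulated data. Arrays of a group number 2, which limits the precision. The day 7 arrays lie alone on 1 slide and scan day, so slide and group cannot be told apart.

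Gene names were planned from a protein match, for which no table was given; matching at least 24 bases to RefSeq start windows (GRCm38.p6, 464 probes matched, 429 at 1 place) was chosen after seeing the data. The rule named genes past the threshold, at least 2-fold, with arrays that do not overlap and well above background in the higher group, then list members, then the 2 largest rises and 2 largest falls without a gene. A probe that this rule chose is not reported here. The members and lists were chosen with earlier results of these data known.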

Additional observations from a re-analysis of the deposited data

Results flagged for a closer look

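For 4 of the probes named by the rule the difference of the colonies from standard day 3, which is of another line, was unlike that of the 48 h culture from control day 3, by limma's test of the difference of these changes. The first minus the second was 5.32 for Z00024925-1 (SE 0.17, limma adjusted p = 4.91e-10) and 3.61 for Z00027818-1 (SE 0.15, limma adjusted p = 4.91e-09). It was -4.26 for Z00033292-1 (SE 0.13, limma adjusted p = 4.21e-10) and -1.78 for Hoxb2 (SE 0.17, limma adjusted p = 4.11e-06). The rule chose these 4 probes on the difference between colonies and 48 h. That difference is a term of this contrast, so their choice favoured a pass. Zmynd10 and Plet1, named after their values were seen, also passed this test, with the values given above. Of all tested probes, 42.8% passed the same test, so nothing is read from the number of passes. The lines, slides and times of the treated and untreated groups differ too, and their part in these values was not tested. For Ntng1, Defb36, Rpl10a and Slc22a20, all at least 2-fold lower in the colonies, the same contrast gave -0.30, -0.10, -0.14 and -0.06, with limma adjusted p values of 0.405, 0.603, 0.696 and 0.745. For Cfap410, also at least 2-fold lower, it was -1.44 (SE 0.59, limma adjusted p = 0.0667).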

How the results depend on the processing

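The main counts were 15174 probes called, 564 and 1236 at least 2-fold higher and lower, and 13298 for the difference of changes. Median centring gave 8498 called, 3738 of them lower, and 6925 for the difference of changes. The processed signals gave 1439 and 2317 at 2-fold, and Cy3 alone gave 865 at 2-fold higher. The authors' value table, with 25030 probes, gave 9559 called, 4981 lower, 928 at 2-fold higher and 8329 for the difference of changes. The cause of these moves was not tested, and the authors' value table also holds fewer probes. Leaving out each array in turn gave 11817 to 14539 called, 4878 to 6489 higher and 6866 to 8050 lower, with 569 to 625 and 1222 to 1264 at 2-fold. The replicate block gave 15319 called, with 564 and 1236 at 2-fold; replicate numbers did not pair the arrays (r = 0.09 between same-numbered deviations). The other settings (offset, filters, the 4 arrays alone, slide or scan day as a random block, intensity trend) stayed within 1.5 times of these counts. Of the 9 probes at 2-fold or more given with full values, Cfap410 alone lost its call, under the 3 settings given with it, and none of the 9 changed direction. Slc22a20 fell under 2-fold after median centring, from Cy3 alone and without the first day 7 array (-0.97). From the processed signals the differences of Z00024925-1, Z00027818-1 and Z00033292-1 were larger, at 5.13, 4.46 and -6.10. Among genes named after their values were seen, calls were lost by Fgf15 and Gm15511 (values in the report), after median centring by Rpl26 (-0.37, limma adjusted p = 0.0846) and both Rpl38 probes, from the processed signals by H2ac18 and H4c3, and from Cy3 alone by Rpl26 (-0.14, limma adjusted p = 0.167), both Rpl38 probes and H2ac18. From Cy3 alone the sign turned for Gm15511 (-0.06), H2ac18 (0.11) and 1 Rpl38 probe (0.27). Of 122 tested probes matched over all 60 bases, added after seeing the data, 51 were called. The planned stricter protein match for gene names was not run, as its table was not used here. With 2 arrays a group, signal over background (medians of 2.30 to 2.88 on the 4 arrays) limits dim probes.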

Other observations

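A probe placed 138 bases before the annotated start of Gm21936 (chr12:87795362-87795421, plus strand, GRCm38.p6), in no annotated gene and singled out after its values were seen, was high in every retinoic acid group. It read 3.60 and 3.29 in day 7 colonies, 4.16 and 4.20 at 48 h and 3.23 on both day 4 arrays. Untreated cells read 0.36 and 0.53 in standard day 3 and 1.99 and 1.93 in control day 3, passage 10 read -0.02 and -0.08, and LY294002 cells were lowest, at -2.55 and -2.40. It was lower in day 7 colonies than at 48 h by a small step (-0.74, SE 0.10, limma adjusted p = 4.15e-05), higher in the colonies than in standard day 3 by 3.00 (limma adjusted p = 7.99e-11) and higher at 48 h than in control day 3 by 2.22 (limma adjusted p = 5.08e-09).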
